A study of Homo sapiens with 6 samples.

Results

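Desmosomes are the adhesive junctions that tie the keratin networks of neighbouring epithelial cells together, and their transcripts were followed here through 10 genes picked by name. These were the desmosomal cadherins DSG2, DSG3, DSC2 and DSC3, the plaque proteins JUP, PKP1, PKP2, PKP3 and DSP, and the membrane protein gene PERP. All 10 were found among the 48644 gene rows of the deposited table, and 9 passed the filter on low values, a mean of at least 1 RPKM (reads per kilobase of transcript, scaled to the mapped reads of the library). DSC2 did not. The cells were KYSE70, an established human esophageal squamous carcinoma line, grown in RPMI1640 with fetal bovine serum and stably carrying a doxycycline-inducible hairpin, named pLKO-Tet-On in the sample labels and pLKO-Tet-Op in the series text. The hairpin was directed against SOX2 (shSOX2) or TP63 (shTP63). Each line had 1 library at day 0, without doxycycline, and 2 libraries after 4 days of doxycycline at 50 ng/ml, which gave 6 poly(A) RNA libraries in 4 groups. The day 0 libraries and 1 day 4 library of each line carry the number 2 in their titles, and the other day 4 library carries the number 1. These numbers were taken as replicates. They could also number hairpins, which would leave the libraries numbered 1 without a matching day 0. Day 4 values are given below in the order 2, then 1. The labels do not say whether a line is a clone or a pool. No hairpin-free or non-targeting control library was used here, so hairpin and doxycycline cannot be told apart.

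In a desmosome, desmogleins (DSG genes) and desmocollins (DSC genes) of adjacent cells bind each other outside the cell. Inside it, plakoglobin (JUP) and the plakophilins (PKP genes) bind the cadherin tails and join them to desmoplakin (DSP), which holds the keratin filaments. In stratified squamous epithelium DSG3 and DSC3 are typical of the basal and lower layers, PKP1 and PKP3 are typical plakophilins, and DSG2, DSC2 and PKP2 also serve simple epithelia and heart muscle. TP63 is known as a regulator of several of these genes in keratinocytes, PERP among them, and SOX2 is a transcription factor of the esophageal epithelium that is often amplified together with TP63 in squamous cancers.

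Deposited values were treated as log2(RPKM + 1), where base 2 is an assumption, and all libraries share the same highest value, 13.36. The RPKM given here are these values with the log undone, and keep any normalization between libraries made before deposit. No counts are given, so that read depth is unknown. The other 5 libraries had 21530 to 23509 genes above 0, but the uninduced shTP63 library only 16167. It held the lowest value of 4 of the 9 tested desmosome genes (DSG2, DSG3, JUP and DSP) and the highest of 2 (PKP1 and PKP3). The matching shares over all genes tested were not computed. These counts therefore describe the weight of this library and are not read as a trait of the desmosome genes. Where another control library turns a direction, this is said with the gene. The labelled epithelial identity was checked with markers. All 6 squamous markers passed the filter, with KRT5 at 8.39 to 11.01 on the log2 scale. KRT14 was low at 0.66 to 2.70 and passed only through the shTP63 libraries, since it was at 0.58 to 0.84 RPKM in the shSOX2 line. Of 4 markers of any epithelium 3 passed, and KRT19 did not, at 0.0061 to 0.59 on the log2 scale. The summed level of leukocyte, endothelial, fibroblast or muscle markers was for none of these lists above 0.821 RPKM in any library, and none of their genes passed the filter. The endothelial list was checked through 2 of its 3 markers, since PECAM1 had no row under that name. The squamous markers, TP63 among them, summed to at least 589.7 RPKM, and CD3E was listed at 0 in all 6. Separate cultures are not stated in the labels, so each p-value speaks only to how far these samples scatter, and that scatter may be technical.

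The hairpin targets check the labels. SOX2 was at 6.25 before and at 5.65 and 4.67 after induction of its hairpin, on the log2 scale. TP63 was at 3.99 before and at 2.26 and 2.11 after induction of its own. Each was lower in both induced libraries than at its day 0, as were 40.2% of all genes tested in the shSOX2 line and 38.5% in the shTP63 line. The log2 changes were -1.10 ± 0.45 for SOX2 (limma standard error, adjusted p = 0.469) and -1.81 ± 0.32 for TP63 (limma adjusted p = 0.131). Neither passed the threshold of 0.05 over all 10536 genes tested. SOX2 was at 5.69 before and at 5.55 and 5.41 after induction of the TP63 hairpin. Between the induced lines, shTP63 minus shSOX2, SOX2 differed by 0.32 ± 0.37 (limma adjusted p = 0.621).

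Desmosome transcripts spanned a wide range of levels. In bulk RNA, fewer cells with a transcript and less of it per cell cannot be told apart. PERP, which encodes a tetraspan membrane protein of desmosomes, had the highest mean, 68.1 ± 18.2 RPKM (SD, n = 6 libraries). It was followed by DSP at 38.8 ± 11.7 RPKM, JUP at 34.3 ± 9.93, DSG2 at 22.1 ± 10.1, PKP3 at 21.8 ± 4.49, PKP1 at 17.0 ± 3.66, DSC3 at 11.4 ± 6.33, DSG3 at 11.2 ± 4.74 and PKP2 at 6.50 ± 1.60 RPKM. DSC2 stood apart at 0.281 ± 0.125 RPKM. Only the last step of this order was clear of the spread over libraries, since the ranges of all other neighbours overlapped. Within libraries PERP was above DSP in 6 of 6 and PKP3 was above PKP1 in 6 of 6, whereas DSC3 was above DSG3 in 3 of 6.

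**Figure D1:**
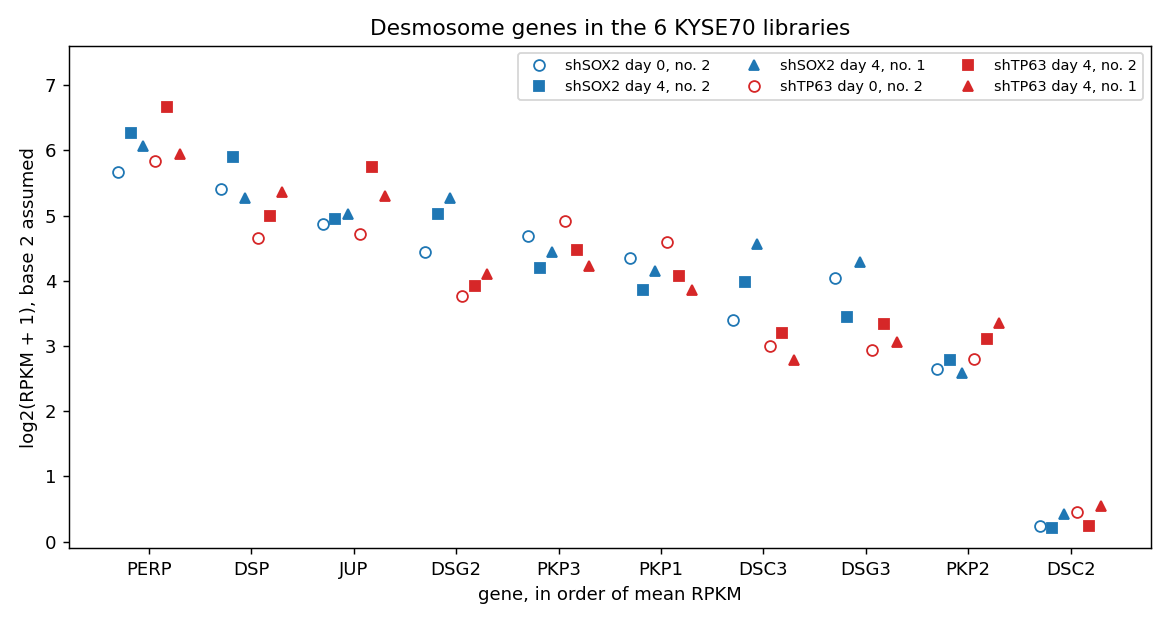
Level of each desmosome gene in each library as log2(RPKM + 1), genes ordered by mean RPKM. Open circles are day 0, squares and triangles the day 4 libraries numbered 2 and 1, blue the shSOX2 and red the shTP63 line. DSG2, DSG3 and DSC3 are lower in every red than in every blue library, and DSC2 lies at 0.21 to 0.54 throughout.

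The cadherins of this cell line were DSG2, DSG3 and DSC3. All desmosomal cadherin genes lie side by side on chromosome 18, in the order DSC3, DSC2, DSC1, DSG1, DSG4, DSG3 and DSG2 in the RefSeq annotation. The outer genes of this row were expressed, while the inner ones were near 0. DSC2 was at 0.21 to 0.54 on the log2 scale, and the upper-layer and hair cadherin genes DSC1, DSG1 and DSG4 did not exceed 0.09, 0.0089 and 0.013. Each of the 3 expressed cadherin genes was lower in every shTP63 than in every shSOX2 library. The 250 bases before their RefSeq start sites are shown for this reason, and differ in base composition. They are from GRCh38.p14, not the hg19 build of the study, for DSG2 (chr18:31497927-31498176, plus strand), DSG3 (chr18:31447491-31447740, plus strand) and DSC3 (chr18:31042743-31042992, minus strand).
DSG2: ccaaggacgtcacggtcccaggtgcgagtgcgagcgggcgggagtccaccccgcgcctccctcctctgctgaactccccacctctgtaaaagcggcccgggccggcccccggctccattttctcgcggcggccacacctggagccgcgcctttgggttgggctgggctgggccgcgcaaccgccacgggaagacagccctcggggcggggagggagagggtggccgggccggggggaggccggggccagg
DSG3: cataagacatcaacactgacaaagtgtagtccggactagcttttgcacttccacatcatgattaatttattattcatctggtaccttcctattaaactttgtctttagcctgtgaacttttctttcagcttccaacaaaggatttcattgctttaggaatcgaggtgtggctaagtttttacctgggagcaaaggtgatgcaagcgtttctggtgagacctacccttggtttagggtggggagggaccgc
DSC3: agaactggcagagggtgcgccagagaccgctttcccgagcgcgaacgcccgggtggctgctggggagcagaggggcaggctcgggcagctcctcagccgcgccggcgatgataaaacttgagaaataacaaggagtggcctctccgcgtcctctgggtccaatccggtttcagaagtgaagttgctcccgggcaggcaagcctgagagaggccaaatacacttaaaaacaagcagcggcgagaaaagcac
G and C made up 75.2% of the bases for DSG2, 42.8% for DSG3 and 60.4% for DSC3. None of these windows held the letters ACAAT (a SOX core), CATG followed after 6 bases by a second CATG (a core of p53 family sites) or TGANTCA (AP-1), searched on both strands, and so nothing is in capitals. Of 35116 RefSeq windows of the same length, 24.6% held the first, 0.296% the second and 6.57% the third.

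DSG2, the desmoglein found in all desmosome-bearing tissues, measured 4.44 at day 0 of the shSOX2 line, then 5.02 and 5.27 at day 4, on the log2 scale. With the TP63 hairpin it measured 3.76 before and 3.93 and 4.10 after induction. Every shTP63 library was thus below every shSOX2 library, and within each line both day 4 libraries were above day 0. The log2 change with induction was 0.70 ± 0.34 in the shSOX2 line (limma adjusted p = 0.524) and 0.25 ± 0.34 in the shTP63 line (limma adjusted p = 0.781), and neither passed. The shTP63 value of DSG2 turned to -0.086 when the control was the pair of day 0 libraries.

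DSC3, the desmocollin of the basal layer, measured 3.40 at day 0 of the shSOX2 line, then 3.98 and 4.56 at day 4. Its levels in the shTP63 line were 3.01 at day 0 and 3.20 and 2.79 at day 4, on both sides of day 0. Its groups did not overlap between the lines either. The log2 change was 0.87 ± 0.39 in the shSOX2 line (limma adjusted p = 0.496) and -0.01 ± 0.39 in the shTP63 line (limma adjusted p = 0.994), with a 95% interval of -0.92 to 0.90 for the latter.

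DSG3, the desmoglein of lower epidermal and mucosal layers, measured 4.04 at day 0 of the shSOX2 line, then 3.44 and 4.29 at day 4, again on both sides of day 0. The shTP63 values were 2.94 at day 0, then 3.34 and 3.06. The lines came closest at 3.44 and 3.34, without overlap. The log2 changes were -0.17 ± 0.43 and 0.26 ± 0.43 (limma adjusted p = 0.906 and 0.822). With both day 0 libraries as the control they turned to 0.38 and -0.29, and without 1 of the day 4 libraries the shSOX2 value ran from -0.59 to 0.25. DSG3 differed by -1.10 between the uninduced libraries, shTP63 minus shSOX2, which have no replicate.

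Summed over the 4 cadherin genes, the level was 45.8 RPKM in the uninduced shSOX2 library and 56.4 and 78.9 RPKM in the induced ones. In the shTP63 line the sums were 26.6 RPKM before and 31.7 and 29.9 RPKM after induction. Of this sum, DSG2 took 44.8% to 55.9% over the 6 libraries, DSG3 17.5% to 33.6%, DSC3 19.7% to 28.7% and DSC2 0.276% to 1.53%.

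**Figure D2:**
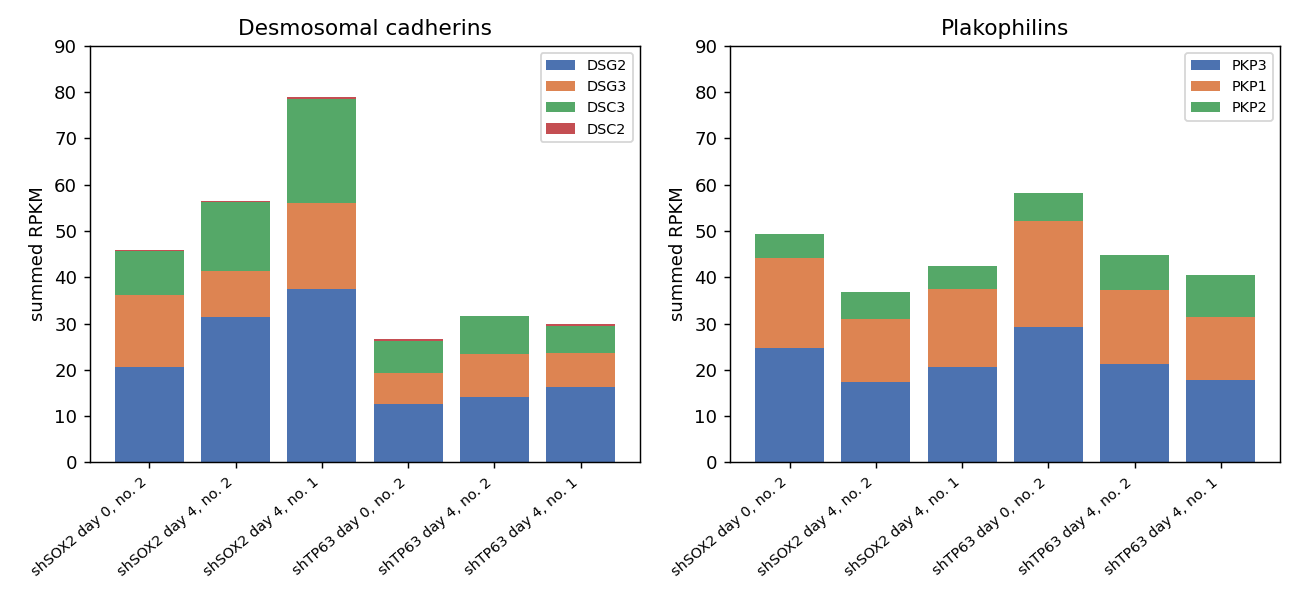
Summed RPKM of the desmosomal cadherin genes (left) and of the plakophilin genes (right) in each library, stacked by gene, both axes from 0. The cadherin sums are 45.8 to 78.9 RPKM in the shSOX2 line and 26.6 to 31.7 RPKM in the shTP63 line, and the plakophilin sum of each line is highest at day 0.

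Among the plaque proteins, JUP, whose product plakoglobin is shared by desmosomes and adherens junctions, measured 4.87 at day 0 of the shSOX2 line, then 4.95 and 5.03 at day 4. With the TP63 hairpin it measured 4.72 before and 5.74 and 5.29 after induction, the 2 highest of all 6 values. The log2 change was 0.12 ± 0.36 in the shSOX2 line (limma adjusted p = 0.921) and 0.80 ± 0.36 in the shTP63 line (limma adjusted p = 0.36). The latter did not pass, and its 95% interval ran from -0.05 to 1.64. Upstream of the second of the JUP start sites in RefSeq (chr17:41785977-41786226, minus strand), the only SOX core in the JUP windows lay 119 to 115 bases before the start, on the reverse strand, and is in capitals here to show what a match looks like.
JUP: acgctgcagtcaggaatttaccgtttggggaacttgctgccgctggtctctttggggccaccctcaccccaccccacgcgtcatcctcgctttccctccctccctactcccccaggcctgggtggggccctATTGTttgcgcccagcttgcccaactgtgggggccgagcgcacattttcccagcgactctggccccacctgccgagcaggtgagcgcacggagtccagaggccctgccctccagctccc
Among the other desmosome genes found in the RefSeq table, only DSC2 had a SOX core. It lay 55 to 51 bases before a start site of that gene, also on the reverse strand. As 24.6% of all windows hold these letters, the matches are descriptions only.

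PKP1 and PKP3, the plakophilins of stratified epithelium, were lower than day 0 in all 4 induced libraries. PKP1 measured 4.34 at day 0 of the shSOX2 line, then 3.86 and 4.15 at day 4, and 4.59 at day 0 of the shTP63 line, then 4.08 and 3.87. PKP3 was at 4.69 before and at 4.20 and 4.44 after induction of the SOX2 hairpin, and at 4.92 before and at 4.48 and 4.23 after induction of the TP63 hairpin. Over all genes tested, 23% were lower in all 4 induced libraries than in their own day 0 library. The log2 changes in the shSOX2 line were -0.34 ± 0.35 for PKP1 and -0.37 ± 0.35 for PKP3 (limma adjusted p = 0.749 and 0.725). Those in the shTP63 line were -0.62 ± 0.35 and -0.56 ± 0.35 (limma adjusted p = 0.456 and 0.496). None of these passed, and the intervals reached from -1.43 to 0.19 for PKP1 and from -1.37 to 0.25 for PKP3 in the shTP63 line.

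The profiles of these plakophilins were nearly parallel, with a Pearson r of 0.991 over the 6 libraries. Among the 10535 other genes tested, 3 had an r with PKP1 at least as high, PKP3 included. The libraries share 2 lines and 2 time points, so r describes these samples only. For DSG2 and DSC3 r was 0.931, a value reached by 1.78% of the genes compared with DSG2, and for JUP and PERP it was 0.791, reached by 6.99%. DSG3 had a lower r, 0.75 with DSG2 and 0.78 with DSC3, for which no such share was computed. Opposed profiles were those of DSP with PKP3 (r = -0.764) and PKP1 (-0.728), and of PKP2 with DSC3 (-0.720), DSG3 (-0.697) and DSG2 (-0.590). For DSP with PKP3, 93.3% of the genes compared with PKP3 had an r at least as high. For PKP2 this share was 89.7% of the genes compared with DSC3, 93.5% with DSG3 and 77.6% with DSG2.

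PKP2, the plakophilin of simple epithelia and heart, had the lowest level of the 3 plakophilins and did not follow the other two. It measured 2.65 at day 0 of the shSOX2 line, then 2.78 and 2.59 at day 4. Its levels in the shTP63 line were 2.81 at day 0 and 3.11 and 3.35 at day 4, and every shTP63 library was above every shSOX2 library. The log2 change was 0.04 ± 0.32 in the shSOX2 line (limma adjusted p = 0.977) and 0.42 ± 0.32 in the shTP63 line (limma adjusted p = 0.588). The shSOX2 value turned to -0.042 against the pair of day 0 libraries and to -0.12 against the day 0 value of the shTP63 line. As a share of the summed plakophilin RPKM, PKP2 was 10.7% in the uninduced shSOX2 library and 16.0% and 11.9% in the induced ones, and it was 10.3% before and 17.1% and 22.6% after induction of the TP63 hairpin. The share was thus above day 0 in all 4 induced libraries, while the sum was below it: 49.4 RPKM against 36.8 and 42.5 RPKM in the shSOX2 line, and 58.2 RPKM against 44.8 and 40.6 RPKM in the shTP63 line.

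DSP, whose product desmoplakin links the plaque to keratin, measured 5.40 at day 0 of the shSOX2 line, then 5.90 and 5.27 at day 4. The shTP63 values were 4.66 at day 0, then 4.99 and 5.36. The lines overlapped, and the uninduced shTP63 library was the lowest of all. The log2 changes were 0.19 ± 0.40 and 0.52 ± 0.40 (limma adjusted p = 0.89 and 0.598). The second turned to -0.23 against the day 0 value of the shSOX2 line.

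PERP, a reported target of p53 and p63, measured 5.66 at day 0 of the shSOX2 line, then 6.26 and 6.06 at day 4. With the TP63 hairpin it measured 5.84 before and 6.67 and 5.95 after induction. All 4 induced libraries were above their own day 0, which held for 19.4% of all genes tested, and the lines overlapped. The log2 change was 0.50 ± 0.40 in the shSOX2 line (limma adjusted p = 0.681) and 0.47 ± 0.40 in the shTP63 line (limma adjusted p = 0.636), with a 95% interval of -0.47 to 1.41 for the latter. The window upstream of PERP (chr6:138107420-138107669, minus strand) was the only one among those of the 8 desmosome genes matched in the RefSeq table that held an AP-1 motif, 101 to 95 bases before the start and in capitals here. The table gave no entry for PKP2 and PKP3.
PERP: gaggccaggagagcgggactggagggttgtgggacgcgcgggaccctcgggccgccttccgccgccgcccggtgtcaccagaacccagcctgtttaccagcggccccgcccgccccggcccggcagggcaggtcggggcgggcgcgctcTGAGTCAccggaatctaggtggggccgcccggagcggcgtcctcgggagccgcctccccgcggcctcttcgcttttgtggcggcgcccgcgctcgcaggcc
None of the windows of the 8 genes held the p53 family core as searched. As 6.57% of all windows hold the AP-1 motif and only 0.296% the p53 family core, the match and the absence are descriptions only.

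Over the 9 desmosome genes tested, limma called 0 at day 4 against day 0 in either line, and 0 had an unadjusted p under 0.05. Of all 10536 genes limma called 0% in the shSOX2 line and 0.019% in the shTP63 line. An unadjusted p under 0.05 was found for 6.12% of them on the higher and 4.26% on the lower side in the shSOX2 line, and for 7.33% and 7.24% in the shTP63 line. In the shSOX2 line both induced libraries were above day 0 for 4 of 9 (DSG2, DSC3, JUP and PERP), against 33.3% of all genes tested, and both were below it for 2 of 9 (PKP1 and PKP3), against 40.2%. In the shTP63 line both were above day 0 for 6 of 9 (DSG2, DSG3, JUP, PKP2, DSP and PERP), against 37.9%, and both were below it for the same 2 of 9, against 38.5%. The median log2 change of the 9 was 0.12 in the shSOX2 line and 0.26 in the shTP63 line, beside -0.05 and 0.00039 over all genes tested. DSG2, JUP and PERP, 3 of 9, were above day 0 in all 4 induced libraries, as were 19.4% of all genes. A difference of 2-fold or more from day 0, shared by both induced libraries of a line, was seen for 0 desmosome genes. Among all genes, 2.48% were by that rule higher and 0.987% lower in the shSOX2 line, and 3.05% higher and 2.82% lower in the shTP63 line.

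**Figure D3:**
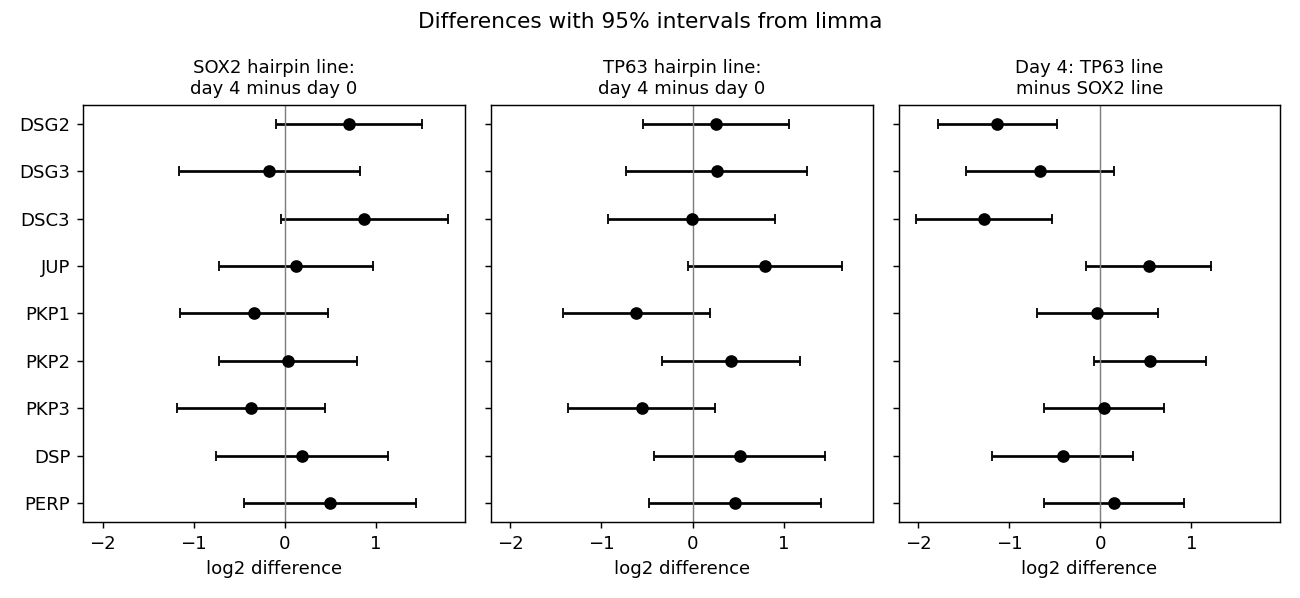
Log2 differences of the 9 tested desmosome genes with 95% intervals from limma: day 4 minus day 0 in the shSOX2 line (left), the same in the shTP63 line (middle), and shTP63 minus shSOX2 at day 4 (right). The intervals of DSG2 and DSC3 at day 4 lie below 0, though neither difference passed the adjusted threshold, and all others include 0.

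The induced lines were also compared with each other, which needs no day 0 library and has 2 libraries on each side. DSC3 and DSG2 were lower in the shTP63 line, with log2 differences of -1.28 ± 0.32 and -1.13 ± 0.28, and their 95% intervals ran from -2.02 to -0.53 and from -1.78 to -0.47. Their unadjusted p were 0.0045 and 0.0043 in limma, and neither passed after adjustment over all genes (limma adjusted p = 0.1 for each). Limma called 0.759% of all genes here and 0 of the 9 desmosome genes, and 12.5% of all genes had an unadjusted p under 0.05 on the lower side, against 2 of the 9, and 10.5% on the higher side, against 0 of the 9. DSG3 had a difference of -0.66 ± 0.35, JUP 0.53 ± 0.30 and PKP2 0.54 ± 0.26 (limma adjusted p = 0.288, 0.312 and 0.261). Leaving out 1 day 4 library moved DSG3 between -1.08 and -0.24, JUP between 0.31 and 0.76, and DSP between -0.73 and -0.10. The groups did not overlap for these 5 genes, with 3 of 9 lower in the shTP63 line against 26.6% of all genes and 2 of 9 higher against 30.5%. The remaining 4 overlapped, with differences of -0.41 ± 0.33 for DSP, 0.15 ± 0.33 for PERP, 0.04 ± 0.28 for PKP3 and -0.03 ± 0.28 for PKP1. SOX2 and TP63 hairpins were not compared at equal knockdown, and TP63 itself had a difference of -1.73 ± 0.26 (limma adjusted p = 0.0467).

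The cadherin levels of the shTP63 line were also lower at day 0, where shTP63 minus shSOX2 was -0.68 for DSG2, -1.10 for DSG3 and -0.39 for DSC3. At day 4 the differences were -1.13, -0.66 and -1.28. TP63 itself differed by 0.39 at day 0. None of the day 0 differences has a replicate, and they rest on the shTP63 library with only 16167 genes above 0. A comparison of the lines over all libraries, chosen after these values were seen and with day 0 and day 4 weighted equally, gave log2 differences of -0.90 ± 0.24 for DSG2, -0.88 ± 0.30 for DSG3 and -0.84 ± 0.28 for DSC3 (limma adjusted p = 0.172, 0.219 and 0.211). None passed, and limma called 0.389% of all genes in it. These 3 of 9 genes had an unadjusted p under 0.05 on the lower side, as did 9.81% of all genes, and 0 of 9 had one on the higher side, against 7.56%. All 3 shTP63 libraries were below all 3 shSOX2 libraries for 3 of 9 desmosome genes, against 11.3% of all genes, and above them for 1 of 9, PKP2, against 12.2%. A difference between the lines at day 0 rests on 1 library a line, and line and hairpin cannot be told apart in it.

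The responses of the lines were tested against each other in the same fit. Limma called 0 of the 9 desmosome genes and 0% of all genes, and 0 of the 9 had an unadjusted p under 0.05, against 2.08% of all genes on the higher and 2.47% on the lower side. The widest differences, shTP63 minus shSOX2 response, were -0.88 ± 0.55 for DSC3 and 0.68 ± 0.51 for JUP (limma adjusted p = 0.995 for both). Their 95% intervals, -2.18 to 0.41 and -0.52 to 1.87, leave room for responses that differ by more than 2-fold in either gene.

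Junction genes outside the 10 were read from lists of other desmosome, adherens, tight and gap junction genes and of proteases that cleave desmosomal cadherins. Limma called 0 of their tested genes in either line. Of 7 other desmosome and cornified junction genes 3 were tested, with median log2 changes of 0.23 in the shSOX2 and 0.24 in the shTP63 line. They were the plakin genes PPL (0.41 ± 0.39 and 0.16 ± 0.39 in the shSOX2 and shTP63 lines) and EVPL (0.23 ± 0.35 and 0.24 ± 0.35) and the armadillo gene PKP4 (0.10 ± 0.30 and 0.41 ± 0.30), with limma adjusted p from 0.568 to 0.925. CDSN, the corneodesmosome gene, was listed at 0 in all libraries.

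Of 12 adherens junction genes 9 were tested, with medians of 0.22 and 0.33 in the shSOX2 and shTP63 lines. CDH1, which encodes E-cadherin, measured 1.87 at day 0 of the shTP63 line, then 3.86 and 5.13 at day 4, for a day 4 minus day 0 difference of 2.63 ± 0.52 (limma adjusted p = 0.131). CDH1 in the shSOX2 line was at 3.50 before and at 3.81 and 3.62 after induction, so the low value stood in the uninduced shTP63 library alone. For CTNND1, the p120 catenin gene, the difference was 0.96 ± 0.36 in the shTP63 line and -0.11 ± 0.36 in the shSOX2 line (limma adjusted p = 0.28 and 0.929). In the shSOX2 line the nectin gene PVRL1 had one of 1.04 ± 0.34 and the alpha-catenin gene CTNNA1 one of -0.87 ± 0.34 (limma adjusted p = 0.423 and 0.445). In the shTP63 line these genes had 0.17 ± 0.34 and 0.02 ± 0.34 (limma adjusted p = 0.857 and 0.985).

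Of 11 tight junction genes 7 were tested. The claudin gene CLDN1 was at 0.57 before and at 3.83 and 1.91 after induction in the shSOX2 line, which is 2.30 ± 0.69 on the log2 scale (limma adjusted p = 0.395), while the uninduced shTP63 library stood at 2.52 and the change in that line was 0.23 ± 0.69 (limma adjusted p = 0.907). The tricellulin gene MARVELD2 showed log2 changes of 0.74 ± 0.49 and 1.14 ± 0.49 in the shSOX2 and shTP63 lines (limma adjusted p = 0.613 and 0.347). The zonula occludens gene TJP3 was at 0.46 before and at 1.11 and 2.66 after induction of the TP63 hairpin, and at 0.22 to 0.55 in the shSOX2 line. Its mean passed the filter only through the induced shTP63 libraries, mainly the one numbered 1, so its change is given as these values alone.

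Of 5 gap junction genes 3 were tested, with median log2 changes of -0.41 in the shSOX2 and -0.43 in the shTP63 line, opposite in sign to GJA1. The connexin gene GJA1 was at 4.20 before and at 6.75 and 6.09 after induction of the TP63 hairpin, a log2 change of 2.22 ± 0.45, and it had 1.25 ± 0.45 in the shSOX2 line (limma adjusted p = 0.137 and 0.438). Of 6 protease genes 3 were tested, and ADAM17 and ADAM10, which shed cadherin ectodomains, had log2 changes of 0.63 ± 0.33 and 0.53 ± 0.32 in the shSOX2 line and 0.17 ± 0.33 and 0.15 ± 0.32 in the shTP63 line (limma adjusted p from 0.544 to 0.86).

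**Figure D4:**
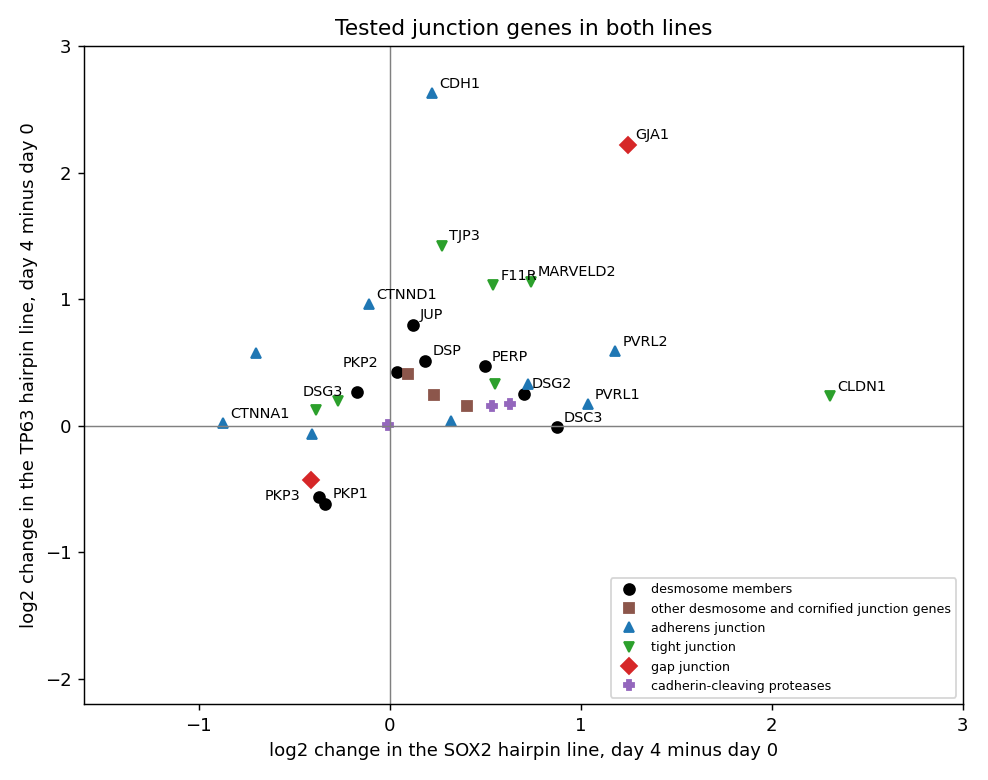
Log2 change from day 0 to day 4 in the shSOX2 line (horizontal) and in the shTP63 line (vertical) for the tested junction genes reported here, marked by list, with names for the desmosome genes and for genes beyond 0.8 in either line. The desmosome gene farthest from 0 on either axis is DSC3, at 0.87 in the shSOX2 line, whereas CDH1 reaches 2.63 and GJA1 2.22 in the shTP63 line.

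The genes with profiles most like the mean of the 9 tested desmosome genes over the 6 libraries were SNORA5C (r = 0.989), P4HA1 (0.988), SNORA59A (0.987), FASTK (0.979) and RP11-758P17.2 (0.979). Those most opposed were RP11-3P17.3 (r = -0.991), ACOT9 (-0.988), the keratin gene KRT80 (-0.983), PRKD3 (-0.982) and MED14 (-0.981). All these genes are the extremes of a ranking of every other gene tested over only 6 libraries, so part of each r comes from the selection. The mean itself joins opposed profiles, such as those of DSP and PKP3 (r = -0.764). SNORA5C and SNORA59A were listed at 0 in the uninduced shTP63 library. On the log2 scale the desmosome mean was 4.39 at day 0 and 4.49 and 4.63 at day 4 in the shSOX2 line, and 4.14 at day 0 and 4.39 and 4.22 at day 4 in the shTP63 line.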

How the data were processed

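Poly(A) RNA of 6 KYSE70 libraries was sequenced on an Illumina HiSeq instrument, per the labels' protocols. The table deposited by the authors names RPKM, but its values fit log2(RPKM + 1) and were tested as deposited log2 values, with no further log. All libraries share a highest value of 13.36, so the values were treated as quantile-normalized, although the share of genes at 0 differs between libraries. This was read from the values, and the assumed base 2 cannot be read from them. With another base every log2 change and RPKM would scale differently, while the order of values would hold. Per the submitters' processing notes, the genome was hg19. For aligner, counter and annotation, nothing is given in the sources used here. No strand-specific step is stated, so overlapping antisense genes may share reads.

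RPKM were obtained by undoing the log2 and subtracting 1, so they keep the assumed quantile normalization and are not scaled to mapped reads alone. The 10536 genes with a mean of at least 1 RPKM over the 6 libraries were fitted with limma 3.58.1 in R 4.3.3, with 4 group means, a mean-variance trend, 2 residual and 5.53 prior degrees of freedom. A lone day 0 library is assumed to vary like the day 4 pairs. P-values are two-sided, Benjamini-Hochberg adjusted over all genes tested, with calls under 0.05. Errors after ± on log2 changes are limma standard errors (n = 1 at day 0 and 2 at day 4 per line). The script was tested on simulated data.

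The desmosome genes, the comparison lists and the motifs were chosen with earlier results of these data known. All 10 desmosome genes, SOX2 and TP63 are named. Of each comparison list the called genes are named or, with none, the 2 of smallest unadjusted p in each line. One gene that this rule names is not reported here. The 5 genes most like and the 5 most unlike the desmosome mean are named. Alternatives varied the filter, pseudocount, scaling, variance trend, libraries in the fit, control library and replicate block, and left out each day 4 library. Promoter sequences are from RefSeq, GRCh38.p14.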

Additional observations from a re-analysis of the deposited data

How the results depend on the processing

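The count of called desmosome genes was 0 in every comparison under all alternatives run, and the lowest limma adjusted p of any of them was 0.0845, for DSC3 between the induced lines. Of 558 log2 differences recomputed, 22 changed sign, in 12 of 45 results, none of them called. With both day 0 libraries as the control, DSG3 was at 0.38 and PKP2 at -0.042 in the shSOX2 line, and DSG2 at -0.086 and DSG3 at -0.29 in the shTP63 line. With the other line's day 0 as control, DSG3 was at 0.93 and PKP2 at -0.12 in the shSOX2 line, and DSG2 at -0.43, DSG3 at -0.83 and DSP at -0.23 in the shTP63 line. With median-ratio scaling PKP3 was at -0.011 between the induced lines. Leaving out a day 4 library gave ranges across 0 in the shSOX2 line for DSG3 (-0.59 to 0.25), PKP2 (-0.059 to 0.13) and DSP (-0.13 to 0.50), and in the shTP63 line for DSC3 (-0.22 to 0.20). It did so for PERP in the difference of responses (-0.39 to 0.33), between the induced lines (-0.22 to 0.51) and between the lines over all libraries (-0.02 to 0.34), and between the induced lines for PKP1 (-0.18 to 0.11) and PKP3 (-0.084 to 0.16). Over all alternatives, DSG2 and DSC3 stayed below 0 between the induced lines, at -1.25 to -0.97 and -1.57 to -0.96.

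Counts over all genes moved more, and the cause was not tested. Between the induced lines 80 genes were called, but 0 with no filter or without either shSOX2 day 4 library, 324 without shTP63 day 4 replicate 1, 30 and 46 with pseudocounts of 5 and 0.1, and 44 at a mean of at least 5 RPKM. In the shTP63 line 2 were called, 154 with no filter, 1 at a mean of at least 5 RPKM, 5 with a pseudocount of 0.1, 0 with its own libraries alone or without either shSOX2 day 4 library, 291 with both day 0 libraries and 49 with the other day 0 library as control, and 80 and 60 without its day 4 replicate 2 and 1. In the shSOX2 line 0 were called, 1 with a pseudocount of 5, 11 with its own libraries alone or without either shTP63 day 4 library, 2 with both day 0 libraries and 4 with the other day 0 library. For the difference of responses 0 were called, and 5 without shTP63 day 4 replicate 2. Over all libraries of each line 41 were called, 0 with no filter, 22 at a mean of at least 5 RPKM, 27 with no variance trend, 7 without either shSOX2 day 4 library, and 101 and 244 without shTP63 day 4 replicate 2 and 1. The title numbers are not stated to pair libraries, and the day 4 deviations of the lines correlated at -0.07 across genes. With the replicate number as a block, 0 desmosome genes were called, and over all genes 0 in either line, 0 for the difference of responses, 18 between the induced lines and 23 over all libraries.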

Other observations

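Among the proteases of the comparison lists, KLK7, a kallikrein that cuts corneodesmosomes in the outer skin, is described here after its values were seen. Its mean of 0.93 RPKM was below the filter, so it was not tested. KLK7 measured 0.19 at day 0 of the shTP63 line, then 1.74 and 1.83 at day 4 on the log2 scale. In the shSOX2 line it was at 0.07 before and at 0.29 and 0.34 after induction, so the induced shTP63 libraries were above all 4 others. KLK5, its activator, was at 0.41 before and at 0.69 and 0.13 after induction of the TP63 hairpin.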
